A study of Mus musculus with 4 samples.

Results

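Stimulation alone was set against phenelzine alone in BALB/c mouse CD8+ T cells, by comparing the accessible regions of stimulated untreated cells with those of unstimulated phenelzine cells. The peaks of both lists on chromosomes 1 to 19 and X were merged wherever they overlapped by at least 1 bp, and every merged region with a peak from either list was a member. This gave 12362 regions, of 15237 regions in all 4 lists of the series. The series, whose title calls the cells tumour-infiltrating, used ATAC-seq, in which the transposase Tn5 inserts adapters into open chromatin, with 1 library per condition and no replicates. The stimulated untreated library came from cells given the phorbol ester PMA together with ionomycin for 2 h, with no phenelzine. The unstimulated phenelzine library came from cells given phenelzine and no PMA or ionomycin. The remaining libraries were stimulated phenelzine and unstimulated untreated. The labels write 1 mg/mL for PMA and 10 mM for ionomycin and do not say whether these are working or stock concentrations. Neither the labels nor the files used here state the dose, time or route of phenelzine, the tumour, the number of mice or how the cells were purified. With 1 library per condition no test was possible, so every difference is between these libraries.

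PMA activates protein kinase C and, through RasGRP proteins, the MAP kinases, which induce and activate AP-1, the dimeric transcription factor of Fos and Jun proteins. Ionomycin raises cytoplasmic calcium, which activates the phosphatase calcineurin and lets NFAT proteins enter the nucleus, where NFAT and AP-1 bind many T cell enhancers together. Phenelzine is an irreversible inhibitor of monoamine oxidases that also inhibits the related enzyme LSD1, the product of Kdm1a, which removes methyl groups from histones in repressor complexes with CoREST proteins and histone deacetylases.

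The stimulated untreated list held 10405 peaks and the unstimulated phenelzine list 7929. The total read number is not in the lists, and the background coverage that each list implied was 0.493 fragments in the stimulated untreated library and 0.471 in the unstimulated phenelzine library, against 0.489 in the stimulated phenelzine library (9322 peaks) and 0.392 in the unstimulated untreated library (6519 peaks). Of 10 genes that define CD8 T cells, 6 had a region within 20 kb in either list: Cd3d, Cd3e, Cd3g, Cd247, Lck and Cd5. Over all protein-coding genes 54.3% had one, so the share is near that of all genes, and it rests on 5 separate regions, since Cd3d, Cd3e and Cd3g are neighbours. No list of the 4 had a peak at Cd8a or Cd8b1, the genes of the CD8 coreceptor, at Zap70 or at Runx3, so these markers do not set the labelled cell type apart. Of 10 myeloid markers, 7 had a region in either list. In a population of cells, a region open in fewer cells and a region less open in each cell cannot be told apart.

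The promoters of 6 genes of the pathway lists show what a region of 1 list alone looked like. For each list, they are the 3 promoters with the highest −log10 q among regions that the other list lacked, the stimulated phenelzine list also held and the unstimulated untreated list lacked, a choice made after the values were seen. The sequences are the 250 bases before the annotated start, 5′ to 3′, from the RefSeq promoter table of GRCm38.p6, the assembly of mm10. Capitals mark bases inside the region. Of the stimulated untreated list alone these are Nr4a3, an orphan nuclear receptor induced by T cell activation (chr4:48045055-48045304, plus strand), Zfp36l1, an RNA-binding protein that destabilises AU-rich messages (chr12:80113014-80113263, minus strand), and Runx1, a lineage transcription factor (chr16:92826075-92826324, minus strand):
Nr4a3: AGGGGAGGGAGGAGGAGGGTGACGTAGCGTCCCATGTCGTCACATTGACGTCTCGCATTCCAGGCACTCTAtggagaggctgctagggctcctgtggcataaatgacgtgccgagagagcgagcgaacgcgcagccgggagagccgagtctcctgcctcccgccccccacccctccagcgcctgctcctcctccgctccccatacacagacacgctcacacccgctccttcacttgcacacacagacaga
Zfp36l1: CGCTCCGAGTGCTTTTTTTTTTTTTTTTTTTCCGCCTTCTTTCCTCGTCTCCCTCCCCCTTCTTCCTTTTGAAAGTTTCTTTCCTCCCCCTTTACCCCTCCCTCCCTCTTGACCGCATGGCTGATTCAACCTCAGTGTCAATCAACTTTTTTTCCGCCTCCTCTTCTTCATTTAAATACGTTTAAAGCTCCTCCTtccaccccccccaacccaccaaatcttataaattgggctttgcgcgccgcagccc
Runx1: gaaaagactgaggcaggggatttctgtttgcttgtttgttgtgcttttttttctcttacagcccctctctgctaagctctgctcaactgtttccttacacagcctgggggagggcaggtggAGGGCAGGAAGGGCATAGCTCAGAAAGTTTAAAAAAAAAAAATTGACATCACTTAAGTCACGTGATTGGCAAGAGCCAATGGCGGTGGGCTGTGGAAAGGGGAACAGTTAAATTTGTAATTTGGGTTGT
Of the unstimulated phenelzine list alone these are H1f2, a linker histone (chr13:23738557-23738806, plus strand), Kdm1a, the gene of LSD1 itself (chr4:136602724-136602973, minus strand), and Maff, a small Maf protein (chr15:79347270-79347519, plus strand):
H1f2: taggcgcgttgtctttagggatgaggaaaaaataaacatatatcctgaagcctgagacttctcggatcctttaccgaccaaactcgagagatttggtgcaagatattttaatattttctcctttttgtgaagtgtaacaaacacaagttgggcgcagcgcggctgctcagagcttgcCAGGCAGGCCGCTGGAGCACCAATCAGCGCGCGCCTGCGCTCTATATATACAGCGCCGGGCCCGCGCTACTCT
Kdm1a: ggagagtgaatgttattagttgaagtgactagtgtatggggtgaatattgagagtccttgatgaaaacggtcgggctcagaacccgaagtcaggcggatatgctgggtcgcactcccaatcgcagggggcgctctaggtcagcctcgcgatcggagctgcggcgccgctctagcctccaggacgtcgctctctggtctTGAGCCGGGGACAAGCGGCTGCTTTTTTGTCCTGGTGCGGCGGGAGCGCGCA
Maff: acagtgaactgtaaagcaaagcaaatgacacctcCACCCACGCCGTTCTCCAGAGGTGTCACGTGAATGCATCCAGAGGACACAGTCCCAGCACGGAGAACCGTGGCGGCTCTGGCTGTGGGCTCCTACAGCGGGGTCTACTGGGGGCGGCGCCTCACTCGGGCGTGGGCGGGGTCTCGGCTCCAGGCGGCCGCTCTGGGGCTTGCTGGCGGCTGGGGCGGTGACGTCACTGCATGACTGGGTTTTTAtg

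The −log10 q of a peak is a value of its own list and ranks peaks only there, so values of different lists are given side by side and not compared. The Nr4a3 region (chr4:48045017-48045125) had a −log10 q of 6.51 in the stimulated untreated list and 2.58 in the stimulated phenelzine list. The Zfp36l1 region (chr12:80113069-80113429) had 4.92 and 1.55 in the same lists, and the Runx1 region (chr16:92825957-92826203) had 4.69 and 1.78. The 3 regions of the unstimulated phenelzine list had a −log10 q in that list of 2.15 at H1f2 (chr13:23738734-23738867), 1.86 at Kdm1a (chr4:136602702-136602775) and 1.77 at Maff (chr15:79347304-79347517). The Kdm1a region had 4.55 in the stimulated phenelzine list. H1f2 was not called with the drug only: another region within 1 kb of its start (chr13:23739699-23739851) was in all 4 lists. The unstimulated untreated list also had a peak within 1 kb of an annotated start of Runx1.

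A search of the printed bases, on both strands and with positions counted from 1 at the 5′ end, found matches to short motifs. In Nr4a3 the letters TGACG, the core of a CRE site bound by CREB and ATF proteins, stood at 20 to 24, 38 to 42 and 46 to 50 inside the region and at 104 to 108 outside it. Zfp36l1 held an AP-1 match (TGANTCA) at 122 to 128 inside the region. Runx1 held a CCAAT box (CCAATCA) at 184 to 190. H1f2 held a CCAAT box at 197 to 203 and an NRF1 match at 208 to 217. Maff held a full CRE (TGACGTCA) at 222 to 229, and Kdm1a held none of the 10 motifs searched. These are matches of letters only.

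Almost as many regions were shared as were held by 1 list. Both lists held 5932 regions (48.0%, exact 95% interval 47.1 to 48.9), the stimulated untreated list alone 4460 (36.1%, 35.2 to 36.9) and the unstimulated phenelzine list alone 1970 (15.9%, 15.3 to 16.6). These intervals, like all that follow, are Clopper-Pearson intervals and cover counting error only. The difference in number went with list length, since 2580 regions were of the stimulated untreated list alone and 2566 of the unstimulated phenelzine list alone when each list was cut to its 7929 strongest peaks. The share of the stimulated untreated list among regions of 1 list lay between 66.4% and 73.2% on every chromosome.

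Regions of 1 list alone lay away from genes more often than shared regions did. Within 1 kb of either end of a protein-coding gene were 31.8% (30.4 to 33.2) of regions of the stimulated untreated list alone and 33.0% (31.0 to 35.2) of regions of the unstimulated phenelzine list alone, against 68.9% (67.7 to 70.1) of shared regions. Elsewhere inside a gene were 34.1%, 33.0% and 15.9% of the same classes. Regions of 1 list were also narrower and weaker. The median width was 108 bp in the stimulated untreated list alone, 96 bp in the unstimulated phenelzine list alone and 222 bp in both lists. A shared region spans the merged peaks of both lists, so part of its greater width comes from the merging. The median peak was 150 bp wide in the stimulated untreated list and 142 bp in the unstimulated phenelzine list. The median −log10 q was 2.12 for regions of the stimulated untreated list alone and 1.84 for those of the unstimulated phenelzine list alone. Shared regions had medians of 3.98 in the stimulated untreated list and 3.11 in the unstimulated phenelzine list. With only peaks of −log10 q of at least 3 used, the gene-end shares came to 61.4% for the stimulated untreated list alone, 63.1% for the unstimulated phenelzine list alone and 82.1% for both lists. Weaker peaks were dropped before merging here. A shared region whose peak in 1 list was below 3 thus counted as a region of the other list alone, and these shares cover such regions too.

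**Figure D1:**
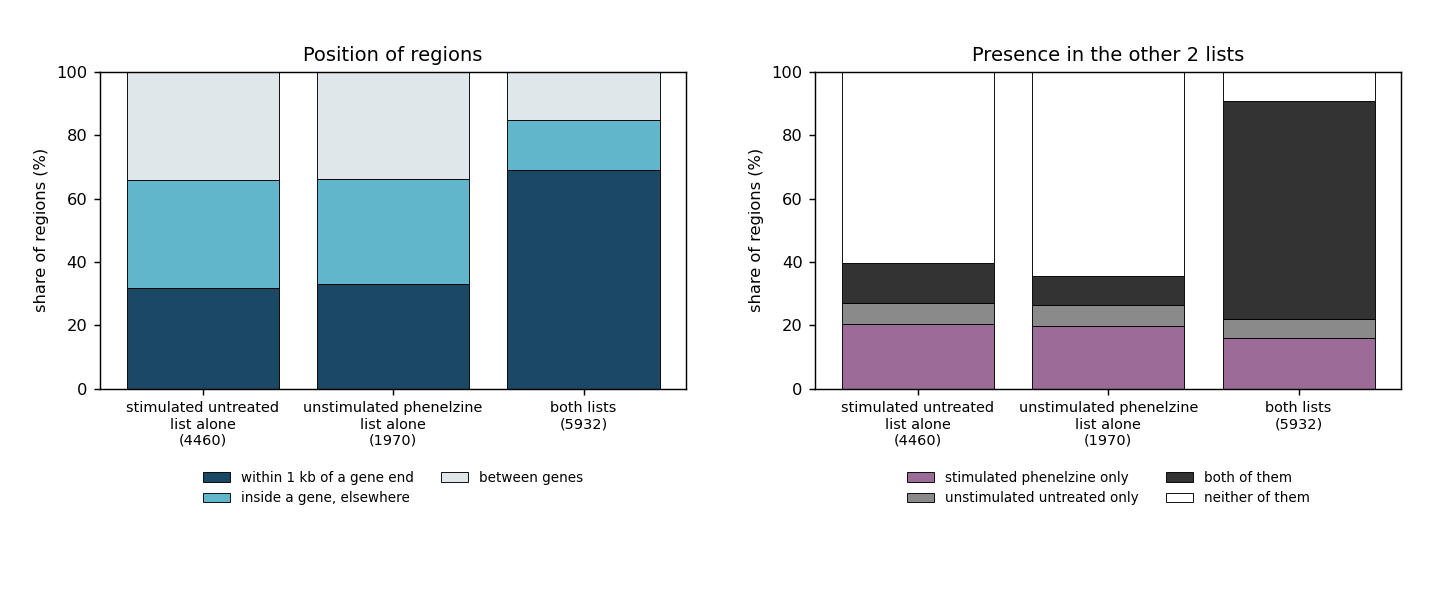
Left, the share of regions (%) within 1 kb of a gene end, elsewhere inside a gene, or between genes. Right, the share (%) also found in the stimulated phenelzine list only, the unstimulated untreated list only, both of these or neither. The 2 classes held by 1 list alone have similar bars, with 31.8% and 33.0% at gene ends, and shared regions stand apart at 68.9%.

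Weak regions were those most often missing from the other list. Of stimulated untreated regions with a −log10 q from 1 to 2, 25.2% were also in the unstimulated phenelzine list, and this share was 45.6% from 2 to 3, 69.8% from 3 to 5, 91.6% from 5 to 10 and 99.3% at 10 or more. Of unstimulated phenelzine regions, 51.5%, 74.9%, 88.9%, 97.0% and 96.9% were in the stimulated untreated list over the same steps. Only 285 regions of the unstimulated phenelzine list alone, and 1012 of the stimulated untreated list alone, had a −log10 q of at least 3.

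**Figure D2:**
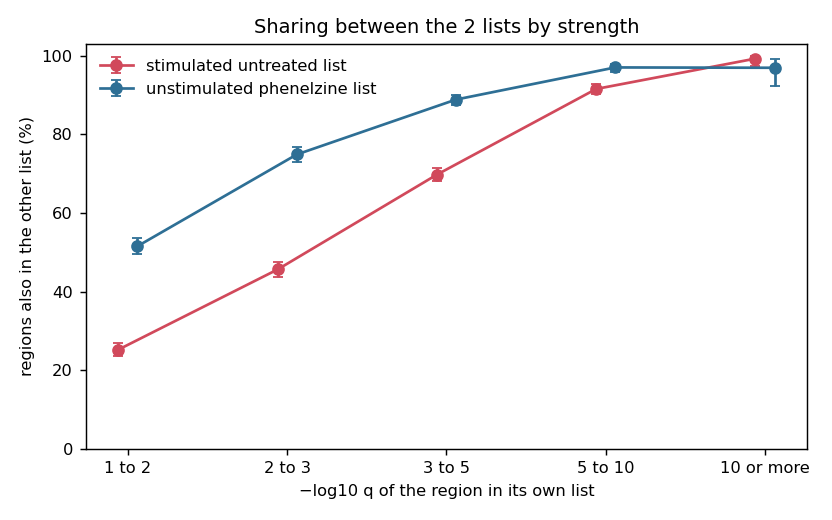
Share of regions (%) also held by the other list, by the −log10 q of the region in its own list, for the stimulated untreated and the unstimulated phenelzine list. Points are shares and bars are exact 95% intervals. The share climbs from 25.2% to 99.3% in the stimulated untreated list and from 51.5% to 96.9% in the unstimulated phenelzine list.

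The other 2 lists, which the merging did not use, were then read at each region. A region of the stimulated untreated list alone goes with stimulation if the stimulated phenelzine list also held it and the unstimulated untreated list did not. This was so for 914 of 4460 (20.5%, 19.3 to 21.7), while 293 (6.57%) were in the unstimulated untreated list only, 564 (12.6%) in both and 2689 (60.3%) in neither. A region of the unstimulated phenelzine list alone goes with phenelzine under the same condition, which 387 of 1970 met (19.6%, 17.9 to 21.5). Of the rest, 131 (6.65%) were in the unstimulated untreated list only, 184 (9.34%) in both and 1268 (64.4%) in neither. Presence in the stimulated phenelzine list only was also more frequent than presence in the unstimulated untreated list only among shared regions (15.8% and 6.10%), for which it marks neither treatment. With all 4 lists cut to 6519 peaks, an alternative chosen after seeing the data, 16.2% (14.6 to 17.9) of regions of the stimulated untreated list alone were in the stimulated phenelzine list only and 12.8% (11.4 to 14.3) in the unstimulated untreated list only. For the unstimulated phenelzine list alone the same shares were 16.4% (14.9 to 18.1) and 14.7% (13.2 to 16.3). The 2 patterns were thus closer to each other at equal length.

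The strongest regions of 1 list alone were often present in both other lists. Of 170 regions of the stimulated untreated list alone with a −log10 q of at least 5, both other lists held 71 (41.8%). Of the 35 such regions of the unstimulated phenelzine list alone, both others held 16 (45.7%). Examples are the gene-end regions of Ankrd42 (chr7:92637085-92637199, −log10 q 12.9), Sdha, a subunit of mitochondrial complex II (chr13:74350199-74350340, 9.78), and Vdac3, a mitochondrial channel (chr8:22593717-22593830, 9.60), all of the stimulated untreated list alone. In the unstimulated phenelzine list alone they are Tnks2, a poly-ADP-ribose polymerase (chr19:36834154-36834269, 10.3), and H2-Q7, a nonclassical class I molecule of a gene family with near-identical copies (chr17:35439051-35439120, 8.32).

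Among regions that went with stimulation in all 4 lists were gene-end regions of Phc3, a Polycomb protein (chr3:30969362-30969462, −log10 q 9.12 in the stimulated untreated list and 4.21 in the stimulated phenelzine list) and Pcna, the sliding clamp of DNA replication (chr2:132252683-132252798, 6.90 and 7.16). Prdm1, the gene of the effector factor Blimp-1, had such a region too (chr10:44529499-44529597), with 6.82 in the stimulated untreated list and 1.46 in the stimulated phenelzine list. Regions that went with phenelzine included Snrpf, a spliceosome core protein (chr10:93589675-93589770, 5.77 in the unstimulated phenelzine list and 8.36 in the stimulated phenelzine list), Ccdc181 (chr1:164275526-164275599, 5.85 and 4.29) and a region 41014 bp from the nearest end of Atf3, a stress-induced AP-1 relative (chr1:191224347-191224504, 5.24 and 4.01).

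Genes were compared by the number of regions in the locus, the gene body with 20 kb on either side. The number was not scaled to the length of the locus, and a long gene has more room for regions. The part of locus length in the counts was not tested. Of 21631 protein-coding genes, 4273 (19.8%) had more regions in the stimulated untreated list and 1643 (7.6%) had more in the unstimulated phenelzine list. The net number over all genes ran from −4 to 7 with a median of 0. With lists of equal length the shares were 12.9% and 11.4%, and with a −log10 q of at least 3 they were 16.6% and 5.04%. The latter cut was made before merging and kept 5057 peaks of the stimulated untreated list and 3427 of the unstimulated phenelzine list. A shared region with a weaker peak in 1 list then counts for the other list alone. Counts of the gene lists below are read against 19.8% and 7.6%. Of the 373 genes of the 21 pathway lists, 102 (27.3%) had more in the stimulated untreated list and 60 (16.1%) had more in the unstimulated phenelzine list, both above the shares of all genes. List genes also had any region more often: 290 of the 373 had one in either list, against 54.3% of all genes. The shares of all genes count those without a region too. Regions that went with stimulation stood in 9.38% of list loci, against 5.66% of all genes. For regions that went with phenelzine the shares were 9.38% and 2.68%. Histone genes, most of them neighbours that share regions, were 18 of the 35 list genes with such a region. They were also 27 of the 60 with more in the unstimulated phenelzine list. Their loci held only 12 separate regions of that list alone, so these shares count the same regions several times. The median net was 0 for every list except NFAT with calcineurin and AP-1, where it was 1. For the unmerged lists of stimulated phenelzine and unstimulated untreated cells, the counts given are peaks in the same locus.

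**Figure D3:**
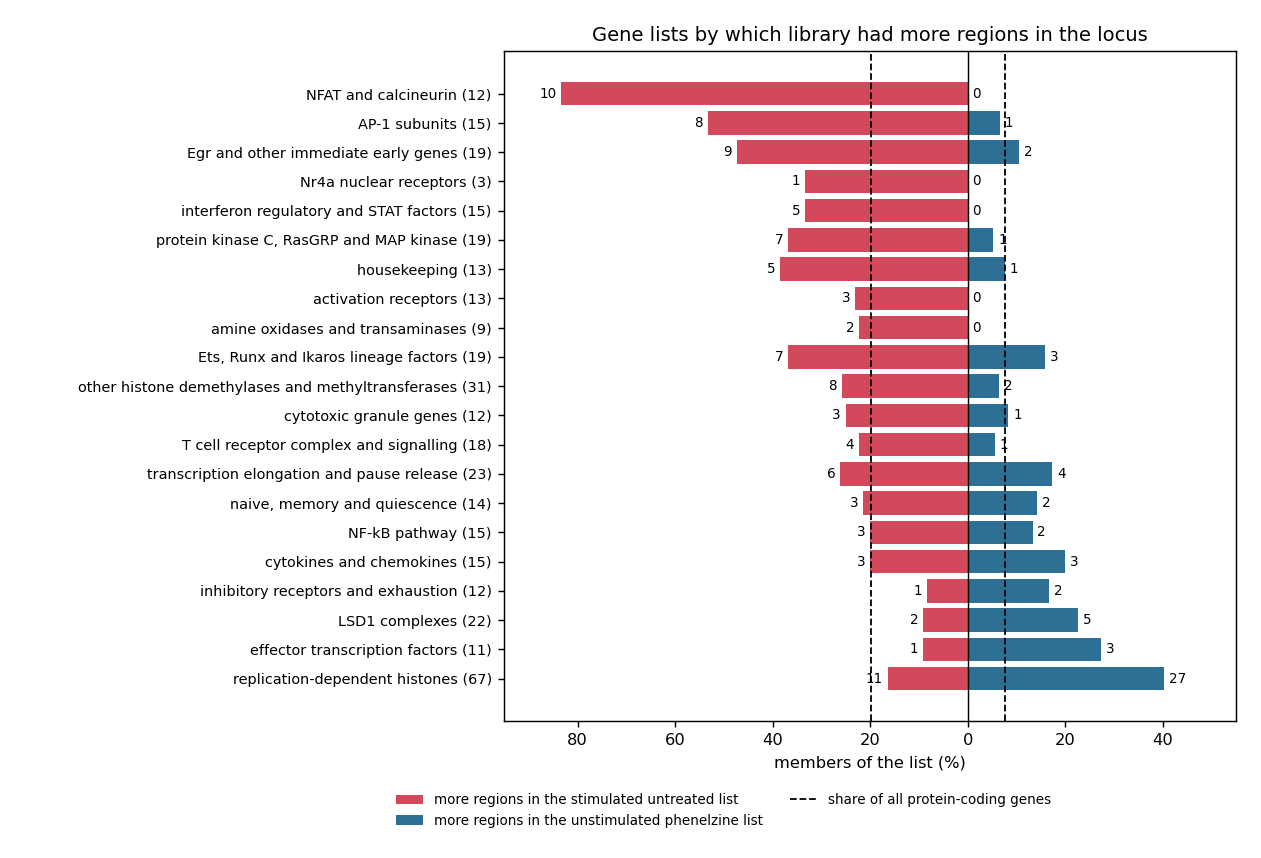
For each gene list (number of members in parentheses), the share of members (%) with more regions in the stimulated untreated list, to the left, and with more in the unstimulated phenelzine list, to the right; numbers are members. Dashed lines mark the shares of all protein-coding genes, 19.8% and 7.6%. NFAT with calcineurin (10 and 0) and the histone genes (11 and 27) are at opposite ends.

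The calcium arm had the most one-sided list. Of 12 genes of NFAT and calcineurin, 10 (83.3%) had more regions in the stimulated untreated list and 0 in the unstimulated phenelzine list, and the list held 14 separate regions of the stimulated untreated list alone and 0 of the unstimulated phenelzine list alone. Nfatc1, whose short isoform is induced on activation, had 3 regions in the stimulated untreated list and 0 in the unstimulated phenelzine list, with 1 peak each in the stimulated phenelzine and unstimulated untreated lists. All 3 were inside the gene and weak (−log10 q 2.16 to 2.31). Orai1, the pore of the calcium release-activated channel, had 1 region at its start in the stimulated untreated list (chr5:123014922-123015068, −log10 q 5.30) and 0 in the unstimulated phenelzine list. The stimulated phenelzine and unstimulated untreated lists both had this region as well (4.24 and 4.37).

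Nfatc2, the NFAT protein of resting T cells, had 3 regions in the stimulated untreated list and 1 in the unstimulated phenelzine list, with 3 peaks in the stimulated phenelzine list and 4 in the unstimulated untreated list. The calcineurin regulatory subunit gene Ppp3r1 had 2 regions in the stimulated untreated list and 1 in the unstimulated phenelzine list, and Rcan1, a calcineurin inhibitor that NFAT itself induces, likewise had 2 and 1. Regions that went with stimulation in all 4 lists stood in 4 of the 12 loci: Nfatc2, Nfatc3, Ppp3r1 and Rcan1. Such a region stood in the loci of 5.66% of all genes. With only peaks of −log10 q of at least 3 used, 4 of the 12 had more regions in the stimulated untreated list, and with lists of equal length 7 had. Over gene bodies alone 6 of the 12 had, against 2186 of all 21631 genes. The number with more in the unstimulated phenelzine list was 0 under each alternative run.

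The protein kinase C arm was less one-sided. Of 19 genes of protein kinase C, RasGRP and the MAP kinases, 7 had more regions in the stimulated untreated list and 1 (Prkcb) had more in the unstimulated phenelzine list. At equal list length the numbers were 3 and 3. The list held 11 separate regions of the stimulated untreated list alone and 4 of the unstimulated phenelzine list alone. Regions that went with stimulation in all 4 lists stood in 5 of the 19 loci (Prkca, Prkcd, Prkce, Prkch and Mapk3), against 5.66% of all genes. Prkcd, the delta isoform of protein kinase C, had 2 regions in the stimulated untreated list, 0 in the unstimulated phenelzine list, 1 peak in the stimulated phenelzine list and 0 in the unstimulated untreated list. Its start-site region (chr14:30626185-30626273) had a −log10 q of 3.75 in the stimulated untreated list and 1.59 in the stimulated phenelzine list. Prkcq, the theta isoform of T cells, and Rasgrp1 had none in any of the 4 lists.

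Downstream, AP-1 genes also had more regions in the stimulated untreated list. Of 15 AP-1 genes, 8 (53.3%) had more in the stimulated untreated list and 1 (Maff) had more in the unstimulated phenelzine list, with 13 separate regions of the stimulated untreated list alone and 1 of the unstimulated phenelzine list alone. At equal list length the gene counts were 7 and 2, and with a −log10 q of at least 3 they were 7 and 0. Over gene bodies alone they were 3 and 1. Fos had 4 regions in the stimulated untreated list and 2 in the unstimulated phenelzine list, with 1 peak in the stimulated phenelzine list and 2 in the unstimulated untreated list. Its promoter region (chr12:85473539-85473859) was in the stimulated untreated list alone of the 4, with a −log10 q of 3.50. The region 8730 bp past the gene (chr12:85486004-85486127) had 6.72 in the stimulated untreated list and 4.14 in the unstimulated untreated list.

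Jdp2, a repressor that dimerises with Jun, had 3 regions in the stimulated untreated list and 0 in each of the unstimulated phenelzine, stimulated phenelzine and unstimulated untreated lists. The strongest was upstream of the gene (chr12:85593101-85593185), with a −log10 q of 6.25. Mafg, a small Maf protein, had 3 regions in the stimulated untreated list (−log10 q up to 4.16), 0 in the unstimulated phenelzine list, 1 peak in the stimulated phenelzine list and 0 in the unstimulated untreated list. Jun had 2 regions in the stimulated untreated list and 1 in the unstimulated phenelzine list, and Junb had 3 in each. Batf, Batf2 and Batf3 had none. A region that went with stimulation in all 4 lists stood in 0 of the 15 AP-1 loci, against 5.66% of all genes. Regions shared by the stimulated and the unstimulated untreated lists, and by neither phenelzine list, stood in 3 AP-1 loci (Fos, Fosl2 and Mafk), against 2.07% of all genes.

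**Figure D4:**
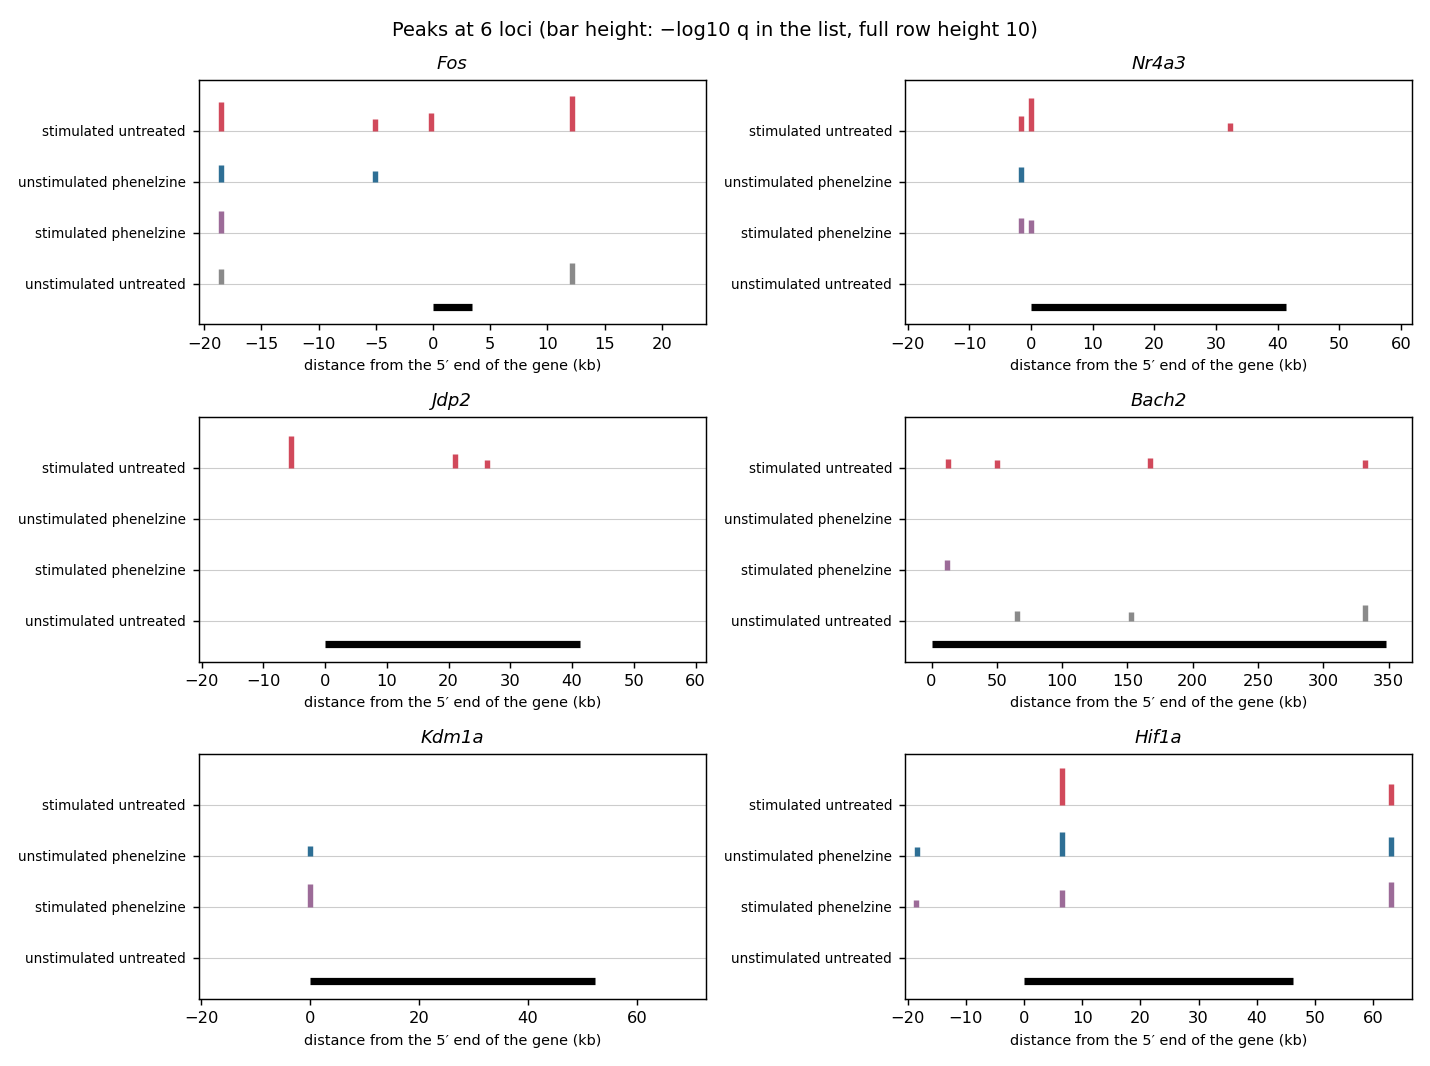
Peaks of the 4 lists at 6 loci by distance (kb) from the 5′ end of the gene; bar height is −log10 q in that list and the black bar is the gene. Fos, Jdp2, Nr4a3 and Bach2 have more peaks in the stimulated untreated row than in the unstimulated phenelzine row, while Kdm1a and Hif1a have 1 more in the unstimulated phenelzine row.

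The list of Egr and other immediate early genes leaned the same way. Of 19, 9 (47.4%) had more regions in the stimulated untreated list and 2 (Egr1 and Ier5) had more in the unstimulated phenelzine list. Zfp36l1 had 3 regions in the stimulated untreated list, 0 in the unstimulated phenelzine list, 2 peaks in the stimulated phenelzine list and 1 in the unstimulated untreated list. Dusp1, a phosphatase that switches off MAP kinases, had 3 regions in the stimulated untreated list, 1 in the unstimulated phenelzine list, 0 peaks in the stimulated phenelzine list and 1 in the unstimulated untreated list. Myc, a growth regulator, had 3 regions in the stimulated untreated list and 1 in the unstimulated phenelzine list. Ier5 went the other way with 1 region in the stimulated untreated list and 3 in the unstimulated phenelzine list, both extra regions lying outside the gene with a −log10 q of 2.92 and 1.05. Of the Nr4a nuclear receptors, Nr4a3 had 3 regions in the stimulated untreated list and 1 in the unstimulated phenelzine list, while Nr4a1 had the same 3 in both. Nr4a2 had 1 region of each list alone, and that of the stimulated untreated list, at its start (chr2:57124143-57124280, −log10 q 2.27), was also in the stimulated phenelzine list (2.68) and not in the unstimulated untreated list. The region of the unstimulated phenelzine list, inside the gene (chr2:57114975-57115084, 1.81), was in neither other list.

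Few genes of the NF-kB pathway differed in number. Of 15 genes, 3 had more regions in the stimulated untreated list and 2 had more in the unstimulated phenelzine list, against 19.8% and 7.6% of all genes. The list held 10 separate regions of the stimulated untreated list alone, mostly at Bcl3 and Nfkbie. It held 4 of the unstimulated phenelzine list alone, among them regions at Nfkb1 and Nfkbid. Rela, the p65 subunit, had a region of each list alone. Bcl3, an atypical IkB protein, had 5 regions in the stimulated untreated list, 1 in the unstimulated phenelzine list, 2 peaks in the stimulated phenelzine list and 3 in the unstimulated untreated list. Nfkbie, the gene of the NF-kB inhibitor IkB epsilon, had 4 regions in the stimulated untreated list and 1 in the unstimulated phenelzine list. Of its 3 regions of the stimulated untreated list alone, the stimulated phenelzine list held every one and the unstimulated untreated list held 1. Among 15 interferon regulatory and STAT factors, 5 (33.3%) had more regions in the stimulated untreated list and 0 in the unstimulated phenelzine list. Irf2, an antagonist of Irf1, had 4 regions in the stimulated untreated list and 1 in each other list, and Stat6, the factor of interleukin-4 signalling, had 3 in the stimulated untreated list and 1 in each other list.

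Effector genes of CD8 T cells had regions in either list at 9 of 15 cytokine and chemokine genes, 5 of 12 cytotoxic granule genes and 5 of 13 activation receptors. Against the 54.3% of all genes, the share of cytokine and chemokine genes was slightly higher and those of granule genes and activation receptors were lower. Of the 15 cytokine and chemokine genes, 3 had more regions in the stimulated untreated list, 3 had more in the unstimulated phenelzine list and 6 had none in either list, among them Ifng and Il2. Ccl3 and Ccl4, neighbouring inflammatory chemokine genes, shared their 2 regions of the stimulated untreated list alone, at chr11:83649407-83649530 (−log10 q 3.72) and chr11:83640299-83640468 (4.08). Tnf, Lta and Ltb shared 1 region of the unstimulated phenelzine list alone (chr17:35210327-35210428, 2.54). Of the 12 cytotoxic granule genes, 3 had more in the stimulated untreated list, 1 had more in the unstimulated phenelzine list and 7 had none, including Gzma, Gzmb and Prf1. Of the 13 activation receptors, 3 had more in the stimulated untreated list, 0 had more in the unstimulated phenelzine list and 8 had none, including Cd69 and Il2ra.

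Genes of T cell state were spread over both lists. Of 14 naive, memory and quiescence genes, 3 had more regions in the stimulated untreated list and 2 had more in the unstimulated phenelzine list. Bach2, a repressor that keeps T cells quiescent, had 4 regions in the stimulated untreated list, 0 in the unstimulated phenelzine list, 1 peak in the stimulated phenelzine list and 3 in the unstimulated untreated list. All 4 were inside the gene and weak (−log10 q 1.53 to 1.94). Ccr7, the lymph node homing receptor, had 0 in the stimulated untreated list and 1 in the unstimulated phenelzine list (chr11:99138981-99139051, 2.00). Of 11 effector transcription factors, 1 (Prdm1) had more in the stimulated untreated list and 3 (Hif1a, Bhlhe40 and Id2) had more in the unstimulated phenelzine list. Hif1a, the hypoxia factor, had 2 regions in the stimulated untreated list, 3 in the unstimulated phenelzine list, 3 peaks in the stimulated phenelzine list and 0 in the unstimulated untreated list. With only peaks of −log10 q of at least 3 used, the effector factor counts were 3 and 1.

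Of 12 inhibitory receptor and exhaustion genes, 1 (Tigit) had more regions in the stimulated untreated list and 2 (Cd244a and Tox2) had more in the unstimulated phenelzine list. Lag3, an inhibitory receptor, had a region of each list alone: chr6:124903742-124903829 in the stimulated untreated list (−log10 q 1.47) and chr6:124919802-124919897 in the unstimulated phenelzine list (3.17, and 5.11 in the stimulated phenelzine list). Of 18 T cell receptor genes, 4 had more in the stimulated untreated list and 1, Cd6, had more in the unstimulated phenelzine list. Of 19 Ets, Runx and Ikaros factors, 7 had more in the stimulated untreated list and 3 had more in the unstimulated phenelzine list. Gata3, a T cell lineage factor, had 2 regions in the stimulated untreated list, 0 in the unstimulated phenelzine list, 0 peaks in the stimulated phenelzine list and 1 in the unstimulated untreated list.

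**Figure D5:**
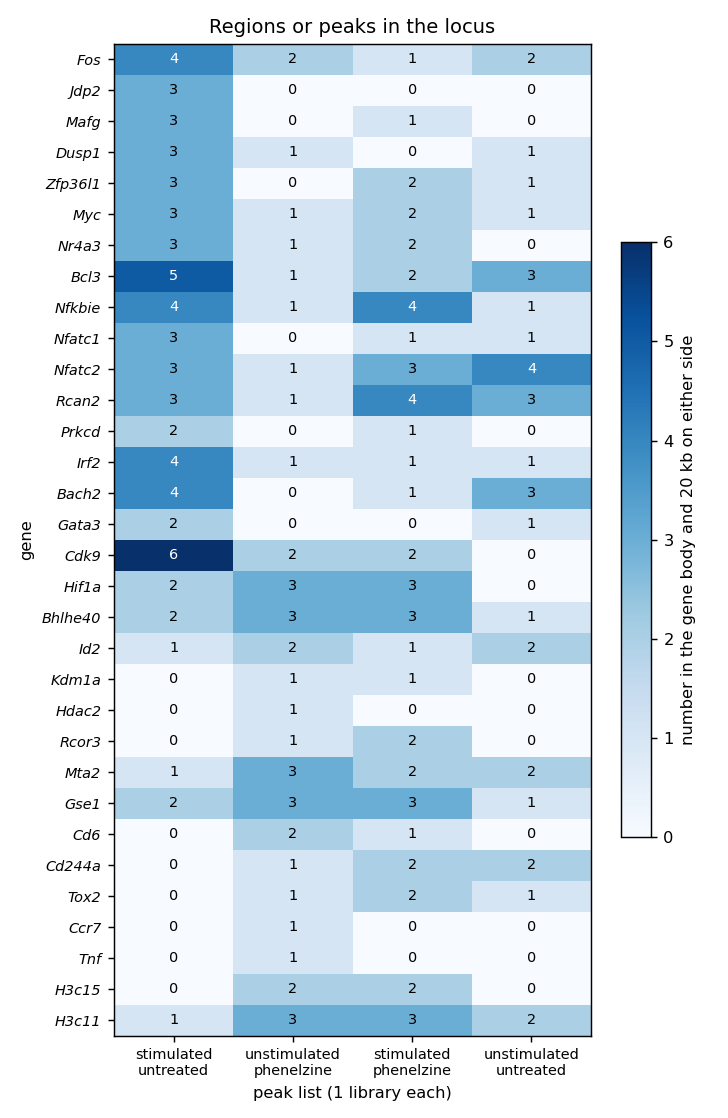
Number of regions (first 2 columns) or peaks (last 2 columns) in the gene body and 20 kb on either side for genes of the lists, darker blue for more. The genes were picked because their numbers differ between the first 2 columns, and they are ordered by direction. List members with equal numbers are not shown. Fos to Cdk9 have more in the stimulated untreated column than in the unstimulated phenelzine column, and Hif1a to H3c11 have fewer.

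The complexes of the drug's histone target tilted to the unstimulated phenelzine list. Of 22 genes of LSD1 complexes, 2 (9.09%) had more regions in the stimulated untreated list and 5 (22.7%) had more in the unstimulated phenelzine list, against 19.8% and 7.6% of all genes. Kdm1a itself had 0 regions in the stimulated untreated list, 1 in the unstimulated phenelzine list, 1 peak in the stimulated phenelzine list and 0 in the unstimulated untreated list, so its start site was called in both phenelzine libraries and in neither untreated one. Rcor3, a CoREST protein, had 0 regions in the stimulated untreated list and 1 in the unstimulated phenelzine list (chr1:192092442-192092724, −log10 q 3.39). The stimulated phenelzine list also held this region (1.46). It lies at an end of the neighbouring gene Traf5, and no list had a peak within 1 kb of an end or start of Rcor3. Hdac2, a histone deacetylase of these complexes, had 0 in the stimulated untreated list and 1 at its start in the unstimulated phenelzine list (chr10:36974236-36974566, 2.23), held by neither other list. Mta2, a subunit of the NuRD complex, had 1 in the stimulated untreated list, 3 in the unstimulated phenelzine list and 2 peaks in each other list. Its start-site region (chr19:8941811-8941926, −log10 q 3.67) was also in the unstimulated untreated list (1.64) and not in the stimulated phenelzine list. Another region of its locus went with phenelzine.

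Regions that went with phenelzine in all 4 lists stood in 4 of the 22 loci (Kdm1a, Rcor3, Gse1 and Mta2), against 2.68% of all genes. On the other side, Hdac1 had 1 region in the stimulated untreated list and 0 in the unstimulated phenelzine list. The Hdac1 region (chr4:129542720-129542843) was also the region of its neighbour Lck and was held by the stimulated phenelzine and unstimulated untreated lists. With only peaks of −log10 q of at least 3 used, the tilt was the other way. Of the 22, 7 then had more in the stimulated untreated list and 2 had more in the unstimulated phenelzine list. Under that cut, 16.6% and 5.04% of all genes did. It also counts a shared region for 1 list alone where the peak of the other list was below 3, so these numbers are not of separate regions only. At equal list length the numbers were 2 and 7.

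The amine oxidases gave little. Maoa, the gene of monoamine oxidase A, had 1 region upstream in the stimulated untreated list (chrX:16618487-16618594, −log10 q 2.73), 0 in the unstimulated phenelzine list, 0 peaks in the stimulated phenelzine list and 1 in the unstimulated untreated list. It was called in both untreated libraries and in neither phenelzine library. Maob had none in any list. Over the 9 amine oxidase and transaminase genes, 2 had more in the stimulated untreated list and 0 had more in the unstimulated phenelzine list. Among 31 other histone demethylases and methyltransferases, 8 (25.8%) had more in the stimulated untreated list and 2 (6.45%) had more in the unstimulated phenelzine list.

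Replication-dependent histone genes, most of which lie in clusters, were the list with the most members on the unstimulated phenelzine side. The list was picked by gene name, so it also holds the linker histone genes H1f0, H1f7, H1f8 and H1f10, to which that name does not apply. They lie on chromosomes 15 and 6, away from the clusters, and each had a net of 0. Of 67 genes, 11 (16.4%) had more regions in the stimulated untreated list and 27 (40.3%) had more in the unstimulated phenelzine list. Most of the genes are neighbours that share regions: the loci held 10 separate regions of the stimulated untreated list alone and 12 of the unstimulated phenelzine list alone. H3c11 had 1 region in the stimulated untreated list, 3 in the unstimulated phenelzine list, 3 peaks in the stimulated phenelzine list and 2 in the unstimulated untreated list. H3c15 had 0 in the stimulated untreated list, 2 in the unstimulated phenelzine list, 2 peaks in the stimulated phenelzine list and 0 in the unstimulated untreated list. With a −log10 q of at least 3 the counts were 29 and 8, and at equal list length 9 and 29. The cut at 3 again counts a shared region for 1 list alone where the peak of the other list was weaker.

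Genes of transcription elongation and housekeeping genes gave a gauge. Of 23 elongation genes, 6 had more regions in the stimulated untreated list and 4 had more in the unstimulated phenelzine list. Cdk9, the kinase that releases paused polymerase, had 6 regions in the stimulated untreated list, 2 in the unstimulated phenelzine list, 2 peaks in the stimulated phenelzine list and 0 in the unstimulated untreated list. Of 13 housekeeping genes, 5 (38.5%) had more in the stimulated untreated list and 1 had more in the unstimulated phenelzine list. This share is above the 19.8% of all genes and near that of the protein kinase C arm (36.8%), and below that of AP-1 (53.3%) and of NFAT with calcineurin (83.3%).

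Over all genes, the largest excess in the stimulated untreated list was at Atxn7l1, with 8 regions against 1 in the unstimulated phenelzine list. Pxn, the focal adhesion adaptor paxillin, and Tec, a kinase of antigen receptor signalling, each had 5 regions in the stimulated untreated list and 0 in the unstimulated phenelzine list. Plcb3, a phospholipase C, had 6 in the stimulated untreated list and 2 in the unstimulated phenelzine list, and Atp7a, a copper transporter, had 4 and 0. At the other end Lcor, a nuclear receptor corepressor, had 0 in the stimulated untreated list and 4 in the unstimulated phenelzine list, with no peak in the stimulated phenelzine or unstimulated untreated list. Cnr2, the cannabinoid receptor of immune cells, had 1 in the stimulated untreated list and 4 in the unstimulated phenelzine list. Traf5, an adaptor of TNF receptors, had 0 in the stimulated untreated list, 3 in the unstimulated phenelzine list, 3 peaks in the stimulated phenelzine list and 1 in the unstimulated untreated list. The region given above for Rcor3 is among them.

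Motif shares in promoters were close between the 2 classes held by 1 list alone. Of 21045 promoter windows of 300 bases, 1232 overlapped a region of the stimulated untreated list alone, 550 one of the unstimulated phenelzine list alone and 4371 a shared one. Median GC content was 61.3%, 61.0% and 62.3% in these classes and 53.3% in windows without a region. An AP-1 match (TGANTCA) stood in 4.87% (3.74 to 6.22) of windows of the stimulated untreated list alone and 4.00% (2.52 to 5.99) of those of the unstimulated phenelzine list alone, against 7.04% of all windows. An NFAT match (TTTTCCA) stood in 4.95% (3.81 to 6.32) and 7.27% (5.25 to 9.77), against 6.02% of all windows. The core TGACG, which lies inside the full CRE TGACGTCA, stood in 35.4% (32.7 to 38.1) and 32.2% (28.3 to 36.3), against 23.8% of all windows, and the full CRE in 3.57% and 3.64%, against 2.26%. An Ets match (CCGGAAG) stood in 23.5% and 26.5%, against 11.7% of all windows. Shared regions differed from both classes in NRF1 matches, with 20.6% (19.4 to 21.9) against 8.85% (7.32 to 10.6) in the stimulated untreated list alone and 11.5% (8.92 to 14.4) in the unstimulated phenelzine list alone. They differed likewise in the CCAAT box (CCAATCA), with 18.1% against 9.33% and 8.36%.

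Of the markers of other cell types, those of myeloid cells had the most regions. A region in either list stood at 7 of 10, against 54.3% of all genes, and 4 of 10 had more in the stimulated untreated list and 1 had more in the unstimulated phenelzine list, against 19.8% and 7.6% of all genes. Regions summed to 15 in the stimulated untreated list and 11 in the unstimulated phenelzine list. Cd14, a coreceptor for bacterial lipopolysaccharide, had 6 regions in the stimulated untreated list and 5 in the unstimulated phenelzine list, and Fcgr1, an Fc receptor, had 4 and 3. The neighbouring histone genes H2bc18, H3c13 and H4c14 had the same 4 and 3. No list had a peak within 1 kb of an end or start of Fcgr1, so its numbers do not set myeloid cells apart. Spi1, the myeloid and B cell factor PU.1, had 2 regions in the stimulated untreated list and 0 in the unstimulated phenelzine list. A peak within 1 kb of a gene end was in the stimulated untreated list and no other for Cd14, Spi1 and the C/EBP factor genes Cebpa and Cebpb. Csf1r, Itgam and Adgre1 had no region.

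Other cell types had regions at fewer markers: 2 of 8 for B cells, 3 of 6 for CD4 and regulatory T cells, 2 of 7 for NK cells, 3 of 8 for epithelial cells and 2 of 8 for stroma and endothelium. The sums were 4 and 3 over 8 B cell markers, 4 and 3 over 6 CD4 and regulatory T cell markers, 2 and 2 over 7 NK cell markers, 2 and 1 over 8 epithelial markers and 2 and 2 over 8 stromal and endothelial markers. Of single markers, Cd4 and Foxp3 each had 1 region in the stimulated untreated list and 0 in the unstimulated phenelzine list, and Ncr1, Epcam and Pdgfra had none. The part of cell composition in the differences was not tested.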

How the data were processed

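Peak lists of 4 ATAC-seq libraries were used, 1 per condition. The submitters' processing notes name mm10 and the tools Bowtie2 2.2.5, Trimmomatic 0.33, HOMER, MACS2 and Picard, without parameters. The authors deposited 1 list of broad peaks per library, called in each library separately. Every peak name carries the word less with the number 120. The sources used here do not explain it, and if it is a limit on fragment length the peaks and the background coverage cover short fragments only. The deposited score was made by the authors' peak caller from the −log10 q-value. It equalled that value times 10 without decimals in at least 99.98% of peaks of every list. The authors' fold enrichment is a ratio of pileup to local background, and their p-value and q-value are deposited as −log10. These values belong to a peak's own list and only describe or rank peaks there.

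Peaks were merged in Python 3.11.15 (pandas 2.3.3, NumPy 2.4.6), with intervals from SciPy 1.17.1. Merging was tested on simulated data and recovered 600 of 600 planted regions. Background coverage was solved from each list's most frequent pair of fold and −log10 p. Genes are the 21631 protein-coding genes of the RefSeq table for GRCm38.p6, which has no strand. Promoter windows covered 17274 of them and no gene of chromosome 18. As alternatives, lists were cut to equal length, and q limits, overlaps, gaps and windows were varied.

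Members and gene lists were chosen with earlier results of these data known. Named genes were list members whose region numbers differ, the drug targets, the 10 genes and regions highest on each side, and a few that list counts single out.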

Additional observations from a re-analysis of the deposited data

How the results depend on the processing

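With 1 library per condition no library could be left out, and the variation between mice is unmeasured. No paired analysis was possible because the labels give 1 library per condition and no replicate numbers. With a −log10 q of at least 3, regions numbered 2429 in the stimulated untreated list alone, 797 in the unstimulated phenelzine list alone and 2623 in both, of 5849 in all, so that shared regions made up 44.8%, against 48.0% with every peak. This cut came before merging, so its regions of 1 list alone include shared regions whose other peak was below 3. When every peak was merged, 1012 and 285 regions of 1 list alone had a −log10 q of at least 3. With lists of equal length, 2580 were of the stimulated untreated list alone. The gene-end shares of the stimulated untreated list alone, the unstimulated phenelzine list alone and both lists were 61.4%, 63.1% and 82.1% with a −log10 q of at least 3. With a 500 bp window they were 28.6%, 29.3% and 65.8%, with a 2 kb window 36.4%, 37.7% and 72.5%, and with start sites, an alternative chosen after seeing the data, 28.6%, 28.8% and 62.9%. At equal length they were 40.1% for the stimulated untreated list alone and 72.1% for both lists. Regions that went with stimulation made up 18.9% with a −log10 q of at least 3, 16.2% at equal length and 18.9% with an overlap of at least 50%. Those that went with phenelzine made up 16.4% at equal length. Genes with more regions in the stimulated untreated list numbered 2781 at equal length and 2186 over gene bodies alone. Genes with more in the unstimulated phenelzine list numbered 1090 with a −log10 q of at least 3, 2469 at equal length and 882 over gene bodies. The net turned round with a −log10 q of at least 3 at Fmnl2 and Dlgap1 (−1 each) and at Ier5, H2ac8 and H2bc8 (1 each). With 50 kb on either side it turned round at H2ac7, H2bc7, H3c4 and H3c6 (1 each). Of 69 named genes, 38 kept their direction with a −log10 q of at least 3, 64 at equal length, 69 with the stricter overlap, 69 with gaps merged, 63 with 50 kb and 36 over gene bodies. Why these moved was not tested.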

Other observations

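The strongest regions of both lists were shared, and most of the 10 strongest lay outside genes. Inside genes were 3 of them, at Chl1, Myo3a and Gm20594, the last 14 bp from a gene end. The strongest, a region 1140495 bp from the nearest end of Galc (chr12:97061438-97061792), had a −log10 q of 646.9 in the stimulated untreated list, 614.9 in the unstimulated phenelzine list, 481.6 in the stimulated phenelzine list and 467.5 in the unstimulated untreated list. The strongest regions of the unstimulated phenelzine list alone also lay outside genes: chr9:3027109-3027176, 308055 bp from Alkbh8, had 46.4, and chr4:80002791-80002979, 831144 bp from Tyrp1, had 23.9. The region near Tyrp1 lies within 1 kb of chr4:80003303-80005117, which is among the 10 strongest shared regions and was in all 4 lists. It is thus not a separate site of the unstimulated phenelzine library. The strongest of the stimulated untreated list alone was inside Arhgef4 (chr1:34753041-34753110, 13.0). No filter on repeats or mapping was applied here.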
